A study of Mus musculus with 6 samples.

Results

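Nucleotide excision repair removes bulky DNA lesions, among them the intrastrand adducts of platinum drugs. The genes described here were chosen by name: Xpa, Xpc, Ddb1, Ddb2, Ercc1, Ercc2, Ercc3, Ercc5, Ercc6 and Rad23b, 10 genes that code for damage recognition, TFIIH and incision factors. They were represented by 13 of the 30146 probe rows in the table, with 3 rows for Ercc1, 2 for Xpa and 1 for each of the other genes. Expression was measured with TempO-Seq, which ligates pairs of short detector oligonucleotides on RNA in a lysate and counts the ligated products. The cisplatin islets came from 3 wild-type C57Bl/6 mice, all male, and had been kept for 48 h in 10 uM cisplatin, a platinum drug that crosslinks DNA. The vehicle islets, from the same 3 mice, had been kept in 0.9% saline for the same time. The 3 cisplatin and 3 vehicle libraries thus form 3 mouse pairs, numbered alike. The age of the mice is in none of the sources used, and islets are mixtures of endocrine and other cells in culture.

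In this pathway Xpc, held by Rad23b, finds distorted DNA anywhere in the genome, helped by Ddb1 and Ddb2, while Ercc6 acts where RNA polymerase has stalled on a lesion. Both routes load TFIIH, whose helicases Ercc2 and Ercc3 open the helix, and Xpa then positions the cut. Ercc5 cuts on one side of the lesion and Ercc1, with its partner Ercc4, on the other, after which polymerases and a ligase fill the gap. Human XPC and DDB2 are known targets of p53. Islet beta cells divide rarely.

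No row of the 10 genes was called higher or lower in cisplatin islets in the reported test. Its expression filter kept no row of 5 of the genes (Ddb2, Ercc2, Ercc3, Ercc5 and Rad23b). Of the 13 rows, 5 passed the filter and were tested (Xpa, Xpc, Ddb1, Ercc1 and Ercc6). The quasi-likelihood test of edgeR called 0 of them at an adjusted p under 0.05, with 0 at an unadjusted p under 0.05. DESeq2 also called 0. Over all 9381 tested rows 25% were called, 11.1% higher and 13.9% lower. The median log2 fold change of the 5 rows, cisplatin minus vehicle, was 0.51, with 3 above 0 and 2 below, against -0.07 over all tested rows. The other 8 rows reached the filter's cutoff in too few libraries. Of these, the row of the TFIIH helicase gene Ercc3 held 73 cisplatin and 23 vehicle counts. That row was called higher in the fit with no filter on low counts. Elsewhere in the pathway the TFIIH subunit gene Gtf2h5 rose 3.13-fold, Pole3 rose 2.39-fold and Pcna 2.18-fold, while the ligase gene Lig1 fell 2.68-fold. The clamp loader gene Rfc1 was also called lower, in a row that passed the filter only through its vehicle libraries. Of these, the Gtf2h5 call held in every alternative fit, and the others were each lost in some.

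The libraries held 1116916 to 1366829 counts with cisplatin and 1470227 to 2272276 with vehicle. The 13 rows together held 226, 138 and 171 of those counts in cisplatin libraries 1 to 3, and 318, 210 and 395 in the vehicle libraries of the same mice. Values are TMM-scaled CPM, that is counts relative to the scaled library total, on which 1 CPM was worth 0.933 to 1.18 counts with cisplatin and 1.58 to 2.54 counts with vehicle. Each probe has its own efficiency, so CPM values of different genes are not compared as RNA levels and serve across genes only to choose which rows represent or are named for a group. The p53 target Cdkn1a, a cell cycle inhibitor, had 900 to 1005 CPM in cisplatin libraries and 30.4 to 61.2 CPM in vehicle libraries in its more abundant row. The 5 beta cell markers took 4.54% to 11.9% of counts with cisplatin and 11.7% to 17.8% with vehicle, with 0 of 5 called higher and 1 lower. The 5 macrophage markers took 0.000895% to 0.00297% with cisplatin, where Adgre1 was at 0, and 0.00755% to 0.0196% with vehicle, with 3 of 3 tested called lower. The 3 endothelial markers took 7.32e-05% to 0.000716% with cisplatin, where Cdh5 was at 0, and 0.00333% to 0.00591% with vehicle, with 1 of 1 tested called lower. The 3 alpha cell markers took 0.538% to 1.13% with cisplatin and 1.93% to 5.44% with vehicle, with 2 of 3 lower. The 3 stromal markers took 0.00206% to 0.00386% with cisplatin and 0.00469% to 0.0171% with vehicle, with 1 of 2 tested called lower. Delta and PP markers took 0.0959% to 0.302% with cisplatin and 0.187% to 0.474% with vehicle. Duct markers took 0.0946% to 0.151% with cisplatin and 0.118% to 0.173% with vehicle, where Sox9 was at 0. Of the 3 duct markers 1 was tested, and neither this list nor the delta and PP list held a call. All shares are of library totals without TMM scaling. Acinar markers took at most 0.00152% of any library, with Prss2 and Amy2a2 at 0 in all, and 2 proliferation markers took at most 0.00089%. The part of these shares in the results was not tested. In such bulk lysates, fewer cells of a type and less RNA per cell cannot be told apart.

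**Figure D1:**
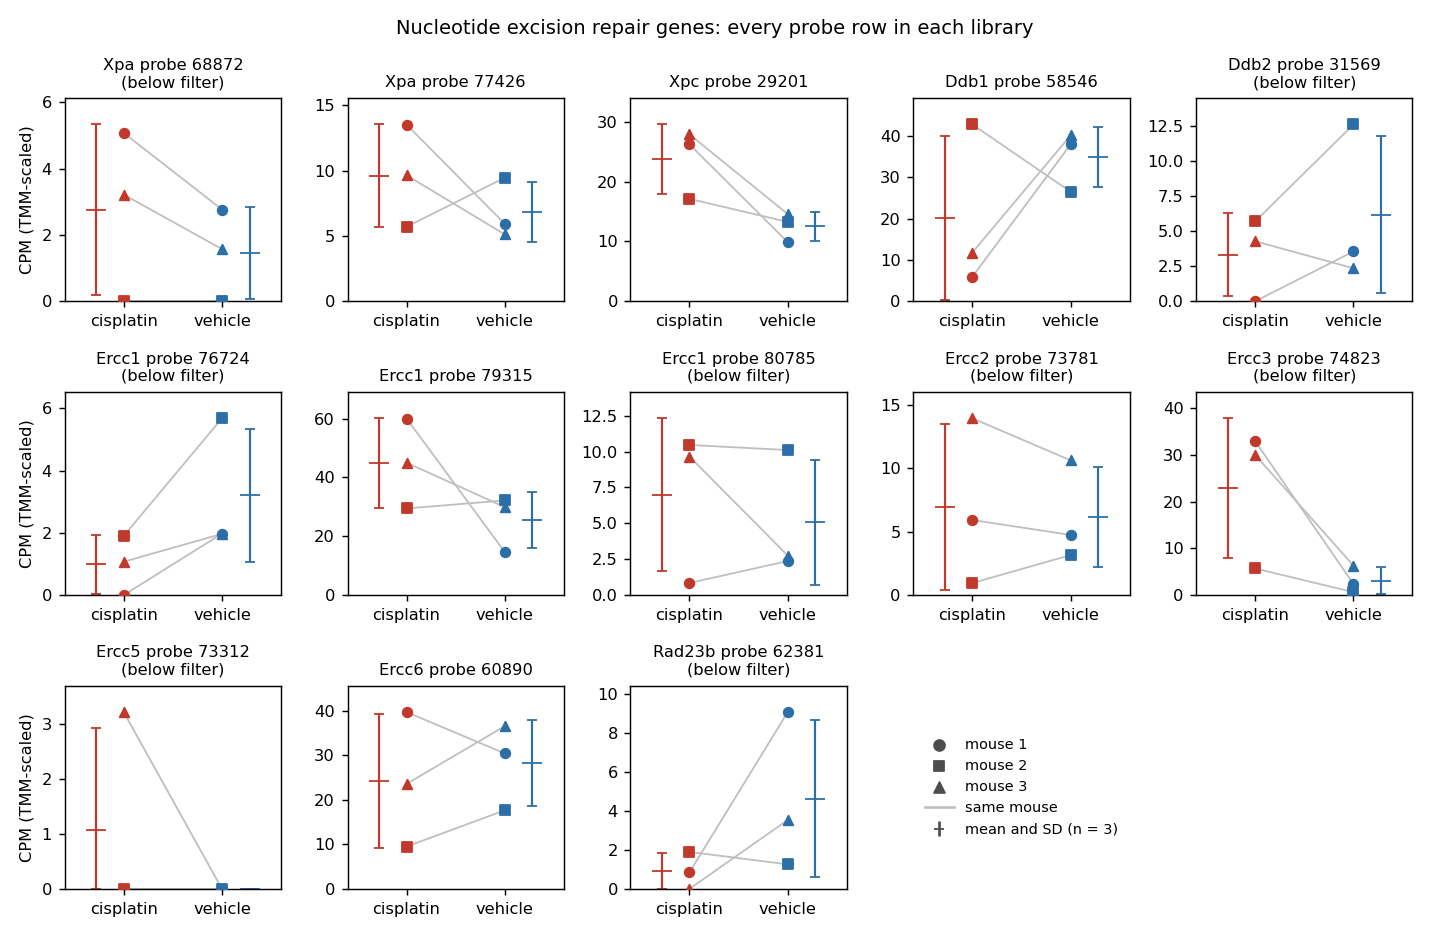
TMM-scaled CPM of all 13 probe rows of the 10 genes, with cisplatin libraries in red at the left of each panel and vehicle libraries in blue at the right; symbols mark the mouse, grey lines join libraries of a mouse, and bars give the mean and SD (n = 3), drawn no lower than 0. The Xpc row is the tested row whose groups do not overlap, and Ercc3 is higher with cisplatin in all 3 mice.

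Among the damage recognition genes, Xpc had the most even shift. Xpc (chromosome 6, 91489305 to 91515888 in GRCm38, GENCODE M21) had 26.2, 17.1 and 27.9 CPM in cisplatin libraries 1 to 3, against 9.88, 13.3 and 14.6 CPM in vehicle libraries 1 to 3. The groups did not overlap, as in 43.4% of all tested rows, and the cisplatin library was the higher in all 3 mice. The log2 fold change of 0.91 ± 0.51 (SE) did not pass the test (95% interval -0.18 to 2.01, adjusted p = 0.210). It was above 0 in every alternative fit, at 0.47 to 1.13, and called in none. Counts were 75 with cisplatin and 83 with vehicle, from libraries that were shallower with cisplatin.

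Ddb1, the adaptor that ties damage recognition to a Cul4 ubiquitin ligase (chromosome 19, 10605327 to 10629819), went unevenly. It had 5.92, 42.8 and 11.8 CPM in cisplatin libraries 1 to 3 and 37.9, 26.5 and 40.1 CPM in vehicle libraries 1 to 3. Cisplatin library 2 was above every vehicle library, and the other two were below all of them. The log2 fold change was -0.80 ± 0.59 (95% interval -2.07 to 0.48, adjusted p = 0.361). Without cisplatin library 2 it was -2.0 and called lower (adjusted p = 0.0303), in a fit where 11% of all rows were called lower, and without both libraries of mouse 2 it was -2.16 (adjusted p = 0.0444). These were the calls among its alternatives, whose adjusted p ran from 0.0303 to 0.81. With a term for the mouse it was -1.17 and not called (adjusted p = 0.201). Ddb1 also serves Cul4 ligases outside repair.

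Ddb2, which binds the lesion together with Ddb1 (chromosome 2, 91211572 to 91236982), was at the edge of detection. It had 0, 6 and 4 counts in cisplatin libraries 1 to 3 and 9, 20 and 6 in vehicle libraries 1 to 3, with 20 of the 35 vehicle counts from mouse 2. The pooled ratio of cisplatin to vehicle on the TMM scale was 0.60, with a 95% counting interval of 0.265 to 1.24, so no difference was detectable at this depth. Without the filter on low counts its log2 fold change was -0.94 ± 1.21 (adjusted p = 0.633).

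Rad23b, the partner that stabilises Xpc (chromosome 4, 55350043 to 55392237), had 1, 2 and 0 counts in cisplatin libraries 1 to 3 and 23, 2 and 9 in vehicle libraries 1 to 3. Of the 34 vehicle counts, 23 were from mouse 1, and in mouse 2 both libraries had 2. The pooled ratio was 0.185 (95% counting interval 0.0364 to 0.590). That interval covers counting error only, and without the filter the fitted difference was not called (adjusted p = 0.383).

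Both TFIIH helicase genes among the 10 were below the filter, which asked for a CPM of at least 7.05 in 3 libraries. The filter's CPM is relative to library totals without TMM scaling, unlike the CPM values printed here. Ercc3 (chromosome 18, 32240300 to 32270151), also known as Xpb, codes for the ATPase that drives opening of the helix. Its row had 39, 6 and 28 counts in cisplatin libraries 1 to 3 and 6, 1 and 16 in vehicle libraries 1 to 3. Scaled, the cisplatin libraries stood at 33.0, 5.70 and 30.0 CPM and the vehicle libraries at 2.37, 0.631 and 6.30 CPM. Cisplatin was higher in all 3 mice, but the low cisplatin library of mouse 2 was below the vehicle library of mouse 3, so the groups overlapped. The pooled ratio was 6.67 (95% counting interval 4.12 to 11.2). It passed the filter's cutoff in 2 cisplatin and 0 vehicle libraries, and so was not tested in the reported fit.

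Ercc3 was called higher without the filter, with a log2 fold change of 2.67 ± 0.78 (adjusted p = 0.0105), in a fit where 3.58% of 24661 rows were called higher. With the mouse as a further term in that fit it was 2.85 ± 0.94 (adjusted p = 0.0347), and with a filter at a mean CPM of 10 it was 2.83 ± 0.83 (adjusted p = 0.0225, where 14% of rows were called higher). The row entered 10 of the alternative fits, was above 0 in all 10 and was called in 7. The call was lost when cisplatin library 3 was dropped (2.57, adjusted p = 0.0841), when vehicle library 1 was dropped (2.67, adjusted p = 0.113) and when vehicle library 2 was dropped (2.37, adjusted p = 0.0841). Dropping vehicle library 3 gave 3.74, the top of the range. In the filtered fits that took it in with cisplatin libraries 1 and 3 both kept, Ercc3 passed through its high cisplatin values. Where cisplatin library 1 or 3 was dropped, it also needed vehicle library 3 to pass.

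Ercc2, the other helicase, also known as Xpd (chromosome 7, 19382010 to 19395694), had 7, 1 and 13 counts in cisplatin libraries 1 to 3 and 12, 5 and 27 in vehicle libraries 1 to 3. In both arms mouse 3 gave the most and mouse 2 the fewest. The pooled ratio was 1.00 (95% counting interval 0.566 to 1.72), and without the filter the log2 fold change was 0.02 ± 1.02 (adjusted p = 0.994). Whether the cisplatin response of Ercc2 differed from that of Ercc3 was not tested.

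Xpa, the factor that checks the damaged strand and recruits the nucleases (chromosome 4, 46155347 to 46196311), had 13.5, 5.70 and 9.65 CPM in cisplatin libraries 1 to 3 and 5.93, 9.47 and 5.12 CPM in vehicle libraries 1 to 3 in its tested row. The groups overlapped, with mouse 2 lower and the other mice higher with cisplatin. The log2 fold change was 0.51 ± 0.74 (95% interval -1.08 to 2.10, adjusted p = 0.667). The less abundant Xpa row had 6, 0 and 3 counts in cisplatin libraries 1 to 3 and 7, 0 and 4 in vehicle libraries 1 to 3, with mouse 2 at 0 in both arms.

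Ercc1 (chromosome 7, 19344778 to 19356524) is the partner that makes Ercc4 an active nuclease. Its main row, the most abundant of its 3, had 60.0, 29.5 and 45.0 CPM in cisplatin libraries 1 to 3 and 14.6, 32.2 and 29.9 CPM in vehicle libraries 1 to 3. Mice 1 and 3 were higher with cisplatin and mouse 2 was slightly lower, so the groups overlapped. The log2 fold change was 0.82 ± 0.44 (95% interval -0.13 to 1.77, adjusted p = 0.196). It was at 0.29 without both libraries of mouse 1 and at 1.23 without those of mouse 2, and was called in neither.

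The other 2 Ercc1 rows were below the filter, and their pooled ratios lay on opposite sides of 1. Probe 76724 had 0, 2 and 1 counts in cisplatin libraries 1 to 3 and 5, 9 and 5 in vehicle libraries 1 to 3, lower with cisplatin in all 3 mice, a pooled ratio of 0.332 (95% counting interval 0.0629 to 1.13). Probe 80785 had 1, 11 and 9 counts in cisplatin libraries 1 to 3 and 6, 16 and 7 in vehicle libraries 1 to 3, a pooled ratio of 1.52 (0.825 to 2.76). The log2 ratio of probe 76724 to the main row averaged -4.43 ± 1.18 with cisplatin and -2.62 ± 0.58 with vehicle (SD, n = 3 each). With 0, 2 and 1 cisplatin counts, the cisplatin average depends on the prior count added before logs were taken. The two-sided exact permutation p was 0.1, the smallest that 3 against 3 libraries allow, and 0.2 adjusted over the 6 probe pairs compared. These probe pairs were chosen after their values were seen.

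Ercc5, the nuclease also known as Xpg (chromosome 1, 44147744 to 44181260), had 3 counts in cisplatin library 3 and 0 in every other library. Both groups were at or under the floor of 3 counts, so nothing can be said of its direction. Ercc6, the remodeler of the transcription-coupled route also known as Csb (chromosome 14, 32513521 to 32580990), had 39.7, 9.51 and 23.6 CPM in cisplatin libraries 1 to 3 and 30.4, 17.7 and 36.6 CPM in vehicle libraries 1 to 3. Mouse 2 had the lowest value in both arms, and the groups overlapped. The log2 fold change was -0.22 ± 0.53 (95% interval -1.35 to 0.92, adjusted p = 0.811), and its sign turned without cisplatin library 2 (0.16) or both libraries of mouse 3 (0.0072).

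The cisplatin library of mouse 2 was the lowest of the 3 for Xpc, Ercc1's main row, Ercc2, Ercc3, Ercc6 and both Xpa rows. It was the highest for Ddb1, Ddb2, Rad23b and the lesser Ercc1 rows. Among 3 libraries only the middle one is not at an end, and the share over all rows was not computed. Whether this library stands apart was not tested. Xpa, Ddb1, Ddb2, Ercc1 and Ercc2 overlap a protein-coding gene on the opposite strand in the annotation, by 328 bases for Ddb1 and 17057 for Xpa at the extremes. The counts are of ligated probe products, with each row a probe, rather than of reads over a gene span. Where each probe lies was not used here, and any effect of the overlaps on the rows of these 5 genes was not tested.

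**Figure D2:**
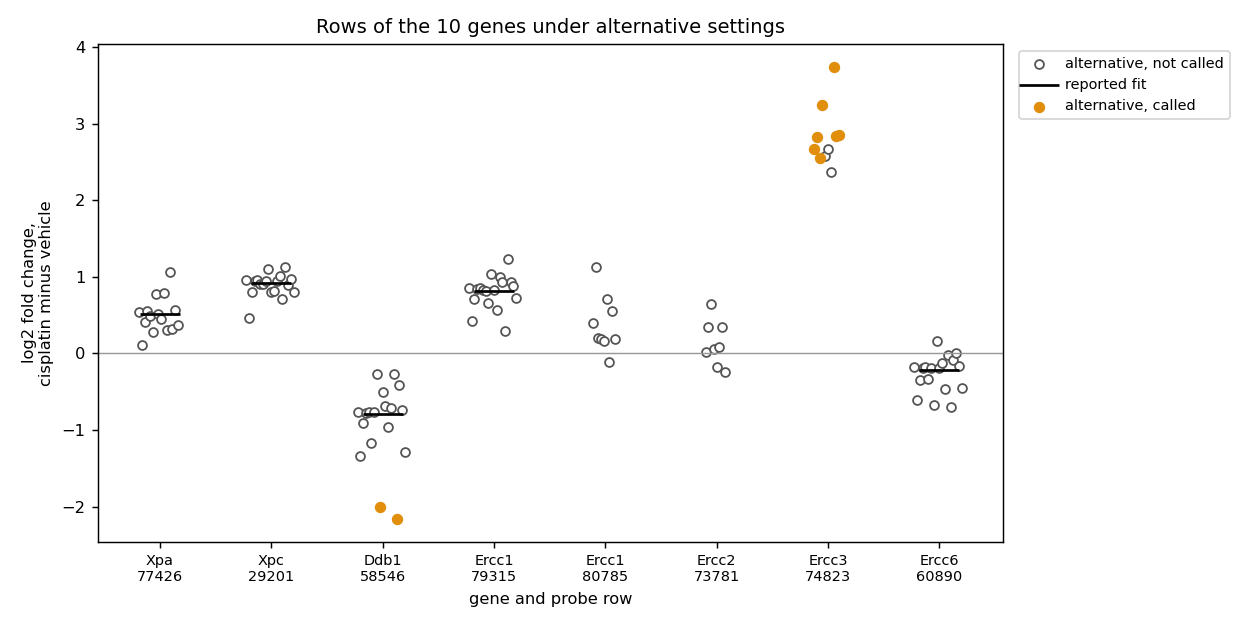
Log2 fold change (cisplatin minus vehicle) of the rows of the 10 genes that at least 6 of the fits took in, with the reported fit as a black bar and each alternative as a circle, filled orange where the adjusted p was under 0.05. Ercc3 has no reported value and lies above 2 in all 10 alternatives, and Ddb1 is called in 2 of its alternatives.

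The rest of the pathway was read from a list of 51 other genes in 6 groups, of which 50 were in the table and 31 were tested, each by its most abundant row. Of these 31 genes 3 rose and 2 fell, against the 11.1% and 13.9% of all rows, and the median log2 fold change was 0.19. DESeq2 called 4 higher and 2 lower. Counting all 42 tested rows of the list, 4 were called higher and 4 lower.

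Of 5 tested genes of the TFIIH core and its kinase module, Gtf2h5 rose. Gtf2h5 codes for the small subunit that stabilises TFIIH and stimulates Ercc3. It had 228, 182 and 256 CPM in cisplatin libraries 1 to 3 and 55.3, 90.9 and 67.3 CPM in vehicle libraries 1 to 3. Every cisplatin library was above every vehicle library, and all 3 mice went the same way. The log2 fold change was 1.64 ± 0.30 (95% interval 1.00 to 2.29, adjusted p = 0.00158). It was called in all 19 alternative fits, at 1.19 to 1.97. The other 4 genes of the group were not called, and the group's median was 0.30.

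Mnat1, the assembly factor of the same kinase module, differed by probe. Its most abundant row had 41.4, 22.8 and 9.65 CPM in cisplatin libraries 1 to 3 and 26.1, 30.3 and 33.8 CPM in vehicle libraries 1 to 3, and was not called (-0.27 ± 0.50, adjusted p = 0.742). Probe 31677 had 1.69, 9.51 and 3.22 CPM with cisplatin and 36.4, 29.7 and 26.0 CPM with vehicle, and fell (-2.66 ± 0.64, adjusted p = 0.00848). Probe 76767 had 0.846, 6.65 and 2.14 CPM with cisplatin and 15.0, 27.8 and 15.7 CPM with vehicle, and also fell (-2.58 ± 0.77, adjusted p = 0.0259). For both of these rows the groups did not overlap and all 3 mice went the same way. Both passed the filter through their high vehicle group, with probe 31677 above the cutoff in 1 cisplatin and 3 vehicle libraries and probe 76767 in 0 cisplatin and 3 vehicle libraries. With no filter their adjusted p was 0.00123 for probe 31677 and 0.0207 for probe 76767. The log2 ratio of probe 31677 to the most abundant row averaged -2.11 ± 1.53 with cisplatin and 0.02 ± 0.42 with vehicle (SD, n = 3 each), with a two-sided exact permutation p at its floor of 0.1, or 0.2 over the 6 pairs compared. Dropping vehicle library 1 took the call from probe 31677 (adjusted p = 0.0682), and dropping cisplatin library 2 put it at -3.65. Probe 76767 lost its call when cisplatin library 3 was dropped (adjusted p = 0.0708) and likewise for each vehicle library (adjusted p = 0.0762 to 0.116), while dropping cisplatin library 2 put it at -3.69. Summed over its probes Mnat1 was called lower at -1.31 (adjusted p = 0.023). The Mnat1 rows outside the most abundant one were chosen after their values were seen.

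Among 11 tested genes of gap filling and ligation 2 rose and 2 fell, one of which, Rfc1, entered the test only through its vehicle libraries. Pole3, an accessory subunit of DNA polymerase epsilon, had 111, 209 and 145 CPM in cisplatin libraries 1 to 3 and 53.8, 68.8 and 72.0 CPM in vehicle libraries 1 to 3 (1.26 ± 0.32, adjusted p = 0.0117). Pcna, the sliding clamp of the polymerases, had 69.3, 64.6 and 50.4 CPM with cisplatin and 34.0, 17.7 and 32.3 CPM with vehicle (1.12 ± 0.38, adjusted p = 0.0449). The groups of neither gene overlapped. Pole3 lost its call when cisplatin library 2 (adjusted p = 0.0592) or vehicle library 1 was dropped (adjusted p = 0.0771). Pcna lost it with a term for the mouse (adjusted p = 0.0538) and with no filter (adjusted p = 0.153), and of the fits that drop 1 library it was called in the fit without cisplatin library 3 and in none of the others (adjusted p = 0.052 to 0.122). With library totals as the scale neither was called.

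Lig1, the ligase that seals nicks in dividing cells, had 8.46, 15.2 and 13.9 CPM in cisplatin libraries 1 to 3 and 41.1, 22.1 and 37.0 CPM in vehicle libraries 1 to 3, lower in all 3 mice (-1.42 ± 0.49, adjusted p = 0.0477). It was not called with a term for the mouse (adjusted p = 0.0897) or with RLE factors (adjusted p = 0.0537), and of the fits that drop 1 library it was called in the fit without vehicle library 2 and in none of the others (adjusted p = 0.0633 to 0.257). Rfc1, the large subunit of the clamp loader, showed 1 count over the cisplatin libraries and 52 over the vehicle libraries in its most abundant row, a ratio of 0.0404 (95% counting interval 0.00100 to 0.235). It was above the filter's cutoff in 0 cisplatin and 3 vehicle libraries, and so was tested only through its high vehicle group. It was called lower (adjusted p = 0.0243, and 0.0479 with no filter), but not with a term for the mouse (adjusted p = 0.0729), and of the fits that drop 1 library it was called in the fit without cisplatin library 3 and in none of the others (adjusted p = 0.0514 to 0.122).

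**Figure D3:**
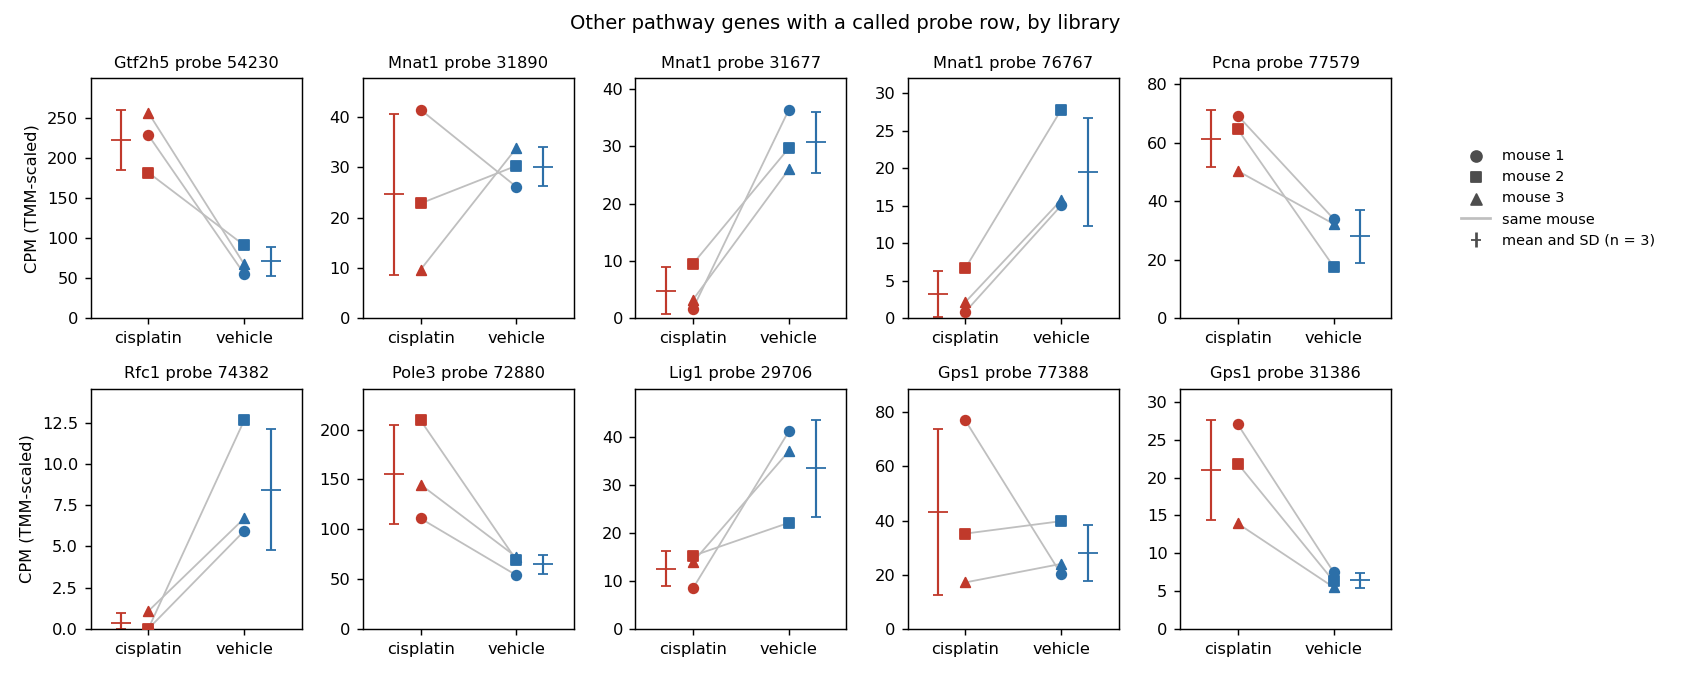
TMM-scaled CPM of every pathway probe row outside the 10 genes that was called, with the most abundant rows of Mnat1 and Gps1 beside them, drawn as cisplatin in red at the left and vehicle in blue at the right with symbols for the mouse and mean and SD bars (n = 3). Gtf2h5 is higher in all 3 mice, and probes 31677 and 76767 of Mnat1 are lower in all 3 while probe 31890 overlaps.

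The remaining groups held no called gene. Of 4 tested partners in recognition and the Cul4 ligase, 0 were called, with Cul4b at an unadjusted p under 0.05 and 0 called by DESeq2. The Cul4b row was at -2.10 ± 0.94. It was above the filter's cutoff in 0 cisplatin and 3 vehicle libraries, and so was tested only through its high vehicle group. The rows with the highest mean CPM were those of Cetn2, a centrin bound to Xpc (0.19 ± 0.39, below 0 with library totals as the scale), and Cul4a, the ligase scaffold (-0.01 ± 0.44, above 0 with RLE factors). Of the transcription-coupled group 1 gene was tested, Elof1, an elongation factor (0.56 ± 0.33, adjusted p = 0.240), with 0 called by DESeq2 and 0 at an unadjusted p under 0.05. The row next in mean CPM, Uvssa, a partner of Ercc6, was untested, with 25 cisplatin and 36 vehicle counts. Of 4 tested incision and single-strand binding genes 0 were called in their most abundant rows, also by DESeq2 or at an unadjusted p under 0.05. Rpa1, which coats single-stranded DNA, was at -0.06 ± 0.30 in that row. A less abundant Rpa1 row, picked out after its values were seen, was at -1.86 ± 0.82 and not called (unadjusted p = 0.0407, adjusted p = 0.116). That row was above the filter's cutoff in 0 cisplatin and 3 vehicle libraries, and so was tested only through its high vehicle group. Ercc4, the nuclease that works with Ercc1, was at -0.60 ± 0.55. Ercc4 had 21.1, 18.1 and 5.36 CPM in cisplatin libraries 1 to 3 and 25.3, 18.9 and 24 CPM in vehicle libraries 1 to 3, lower in all 3 mice but not called (adjusted p = 0.469). The main row of its partner Ercc1 was at 0.82, also not called (adjusted p = 0.196), and whether Ercc4 and Ercc1 differed was not tested.

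Of 6 tested genes of the COP9 signalosome, which switches off Cul4 ligases, and Usp7, a deubiquitinase, 0 were called. Cops5, its catalytic subunit, was at 0.73 ± 0.29 (adjusted p = 0.0799). Among the most abundant rows of this group, that of Cops5 was the 1 at an unadjusted p under 0.05 and the 1 called by DESeq2. Usp7 was at -0.46 ± 0.27 (adjusted p = 0.228). A less abundant row of the subunit gene Cops7a, picked out after its values were seen, was at -1.08 ± 0.46 and not called (unadjusted p = 0.0349, adjusted p = 0.104). The most abundant Cops7a row was at 0.19 ± 0.37. A less abundant row of Gps1, another subunit, was called higher (1.69 ± 0.59, adjusted p = 0.0476), also by DESeq2 (adjusted p = 0.0231). The most abundant Gps1 row was not called (0.64 ± 0.51, adjusted p = 0.394). The called row, chosen after its values were seen, passed the filter through its high cisplatin group, with 3 cisplatin libraries and 1 vehicle library above the cutoff. It was not called with no filter (adjusted p = 0.183) or with a term for the mouse (adjusted p = 0.105), and of the fits that drop 1 library it was called in the fit without cisplatin library 3 and in none of the others (adjusted p = 0.0721 to 0.205).

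**Figure D4:**
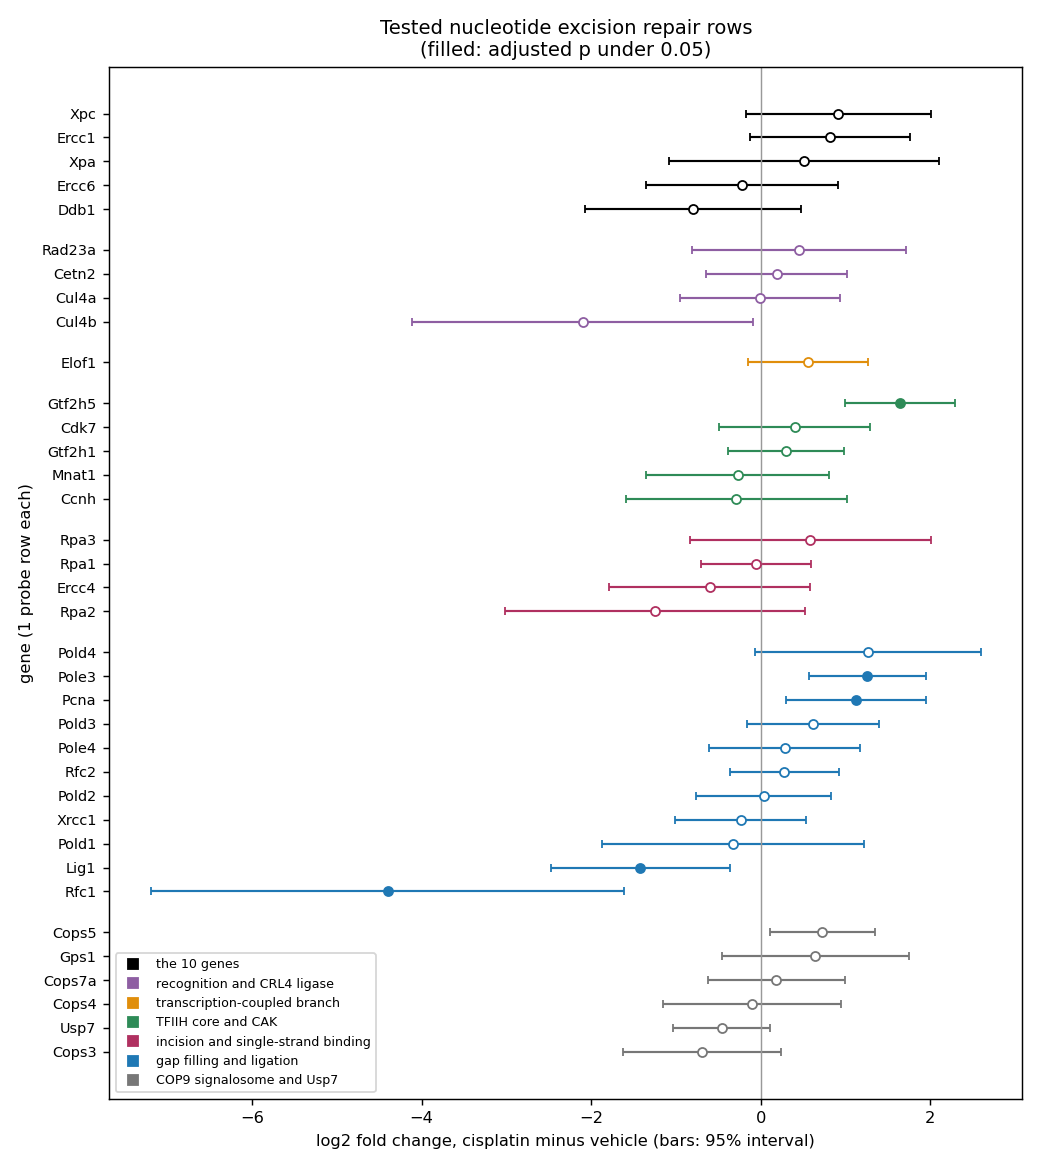
Log2 fold change (cisplatin minus vehicle) with its 95% interval for the 5 tested rows of the 10 genes and for 31 other pathway genes, coloured by group and filled where the adjusted p was under 0.05. All 5 intervals at the top cross 0, and Gtf2h5 is the filled point of the TFIIH group.

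The rows whose profile over the 6 libraries lay closest to that of the main Ercc1 row were Atp5e, Glod4 and Camk1, with root mean square differences of 0.130, 0.130 and 0.159 in centred log2 CPM among 9381 rows. None of these 3 was called (log2 fold changes of 0.62, 0.79 and 0.79).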

How the data were processed

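The authors deposited whole-number counts per probe row and library, and no normalized values were used. Without stating a role, STAR 2.7.10b, fastp 0.23.2 and DESeq2 1.44.0 are named in the submitters' processing notes. The probe set is the mouse whole transcriptome panel per the labels' protocols, and no source used here gives the alignment target or how reads were counted. Library totals were 1116916 to 2272276 counts, and 0 rows lacked a gene symbol.

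Counts were fitted for all rows with edgeR 4.0.16 (limma 3.58.1, R 4.3.3): rows kept by the expression filter at a minimum count of 10, TMM factors, robust quasi-likelihood F-test with treatment as the only term, two-sided, Benjamini-Hochberg adjusted over 9381 rows, called under 0.05. Each SE was worked back from the estimated log2 change and the F value of its test. The 95% intervals take a t multiplier on the total degrees of freedom. That total is the residual degrees of freedom plus the prior ones that edgeR adds by sharing variance information across rows. Pooled ratios carry exact 95% Poisson intervals on counts summed over the libraries of a group. These intervals hold no more than counting error, leave out variation between libraries, and treat PCR copies as separate molecules. Nearest profiles and the log2 ratios between probes used log2 CPM with a prior count of 2. Gene positions are from GENCODE M21 (GRCm38).

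All rows of the 10 genes are given. Of each other group every called gene is named, or the 2 with the highest mean CPM where none was called. The genes, groups and tests were chosen with earlier results of these data known. Labels tie both libraries of a mouse to the same animal identifier, and deviations from group means correlated at -0.116, 0.0336 and 0.219 within the 3 mouse pairs and at -0.227 to 0.168 across mice. Alternatives were a mouse block, RLE factors, library totals, DESeq2 1.42.0, no filter, a mean CPM filter of 10, counts summed over the probes of a gene, counts thinned to the smallest total, and each library or mouse left out. Added after the data were seen were leaving out mitochondrially encoded rows and no filter with the mouse block.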

Additional observations from a re-analysis of the deposited data

How the results depend on the processing

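No row of the 10 genes was called under RLE factors, library totals, DESeq2, summed probes, thinning or the mouse block. These fits tested 4 (thinning) or 5 rows of the 10 genes, and Ercc3 entered none of them. With library totals as the scale the median log2 fold change of all tested rows was -0.54, against -0.07 as reported, and the rows called were 459 higher and 2023 lower, against 1040 and 1304. In that fit 1 other pathway gene was called higher. Without the filter, with a mean CPM of at least 10, or without the filter but with the mouse block, 1 row of the 10 genes was called higher, in each case Ercc3. Other pathway genes called lower numbered 1 with RLE factors, no filter, the mean CPM filter or the mitochondrially encoded rows left out, against 2 as reported. The last of these settings, and the one that joins no filter and the block, were chosen after seeing the data.

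With the mouse as a replicate block the other pathway genes called were 2 higher and 0 lower, also 0 lower with no filter, and all rows called numbered 2197, against 2344. The block changed no call of the 10 genes in the filtered fit.

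Leaving out 1 library gave 1085 to 2538 rows called, of which 504 to 1244 were higher and 581 to 1294 lower. Of the 10 genes it gave 0 to 1 rows higher (Ercc3) and 0 to 1 lower (Ddb1), and of the other pathway genes 1 to 3 higher and 0 to 1 lower. Leaving out both libraries of mouse 1, 2 or 3 gave 1350, 1511 and 1021 rows called, of which 593, 656 and 424 were higher and 757, 855 and 597 lower. With mouse 2 left out, 1 row of the 10 genes was higher and 1 lower. Other pathway genes called without mouse 2 or mouse 3 were 1 higher and 0 lower, and without mouse 1 there were 0 lower.

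Signs turned in genes near 0, none of them called. Cul4a was at 0.025 with RLE factors, 0.027 with DESeq2, 0.0075 with the mean CPM filter, 0.018 with the block, 0.043 without the mitochondrially encoded rows and 0.17 without mouse 2, and it ran from -0.19 to 0.27 over the fits without 1 library. Cetn2 was at -0.22 with library totals, -0.18 without mouse 1 and -0.042 without mouse 3, and ran from -0.00043 to 0.64 without 1 library. Rpa1 was at 0.037 without mouse 2 and 0.00030 without the mitochondrially encoded rows, and ran from -0.084 to 0.020 without 1 library. Ercc6 was at 0.0072 without mouse 3 and ran from -0.68 to 0.16 without 1 library. The cause was not tested. Thinning left 4 of the 13 rows tested, and the counts of the untested rows limit what differences they can show.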
